A study of Drosophila melanogaster with 2 samples.

Results

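The genes of 7 insulator and boundary proteins, Chro, Cp190, mod(mdg4), Trl, BEAF-32, su(Hw) and CTCF, were examined for binding of a ranshi-eGFP fusion protein in Drosophila melanogaster embryos. They were taken by symbol from 13968 protein-coding genes of the dm6 annotation, and all 7 were found. Those 13968 include 23 precursor genes within mod(mdg4), of which 10 count as having a conservative start peak through 1 shared peak. A peak was counted for a gene when its summit lay within 500 bp of one of the gene's transcript starts or anywhere inside the gene. Both samples were biological replicates of 1 group, whole embryos of a ranshi-GFP line aged 0 to 24 h that carried an insertion targeting ranshi, and chromatin was pulled down with an anti-GFP antibody. Ranshi is a zinc finger protein with a ZAD domain, and it is the tagged fusion, not the native protein, that was measured. The age range spans all of embryogenesis and every tissue, so a peak does not tell which cells carried it. No second condition, untagged line or control library was analysed here.

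Insulators are DNA elements that limit which enhancers reach which promoters and that often lie at the borders of chromatin domains. In flies, proteins that read a DNA sequence, such as su(Hw), CTCF, BEAF-32 and the GAGA factor encoded by Trl, recruit shared cofactors, among them Cp190, mod(mdg4) and Chro, and the cofactors bring distant elements together. Most of these proteins are also found near the promoters of active genes.

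The deposited data were 8 peak lists. Thresholded sets held 3636 peaks for replicate 1 and 3149 for replicate 2. Over both replicates, a conservative set held 2984 peaks and a larger set 5373. Behind each set stood a ranked list of 83284 to 132943 candidates. Sets were limited at an irreproducible discovery rate (IDR) of 0.0100. The IDR estimates the share of peaks ranked that high that are not reproducible between the lists compared. A replicate's own set comes from 1 sample, so its IDR does not measure agreement between the replicates. The larger set does not require it either, since a mod(mdg4) peak with an IDR of 0.000412 had no candidate in replicate 1. Signal is the value the peak caller gave each peak. It was not scaled between lists, so the signal of a peak was compared only within a list, and its place between lists was given as its rank divided by the length of the list (top percent). Read depth was not stated in the sources used here.

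The sequences under 6 of the peaks are shown first, since they are the places the results below turn on. Each runs 5′ to 3′ along the sense strand of its gene, the minus strand of dm6 in every case, and reaches 100 bp to each side of the summit. Capitals mark matches, on either strand, to any of 7 words spelled out with the motif counts further on, among them CGATA at Chro and Cp190 and TGCATA at mod(mdg4) and su(Hw). The Chro window is 3L:22878799-22878999, the Cp190 window is 3R:15275246-15275446 and the mod(mdg4) window is 3R:21365363-21365563. The Trl windows are 3L:14759414-14759614 and 3L:14758137-14758337, and the su(Hw) window is 3R:14308858-14309058. The first 4 come from the conservative set and the last 2 from the larger set only.
Chro start peak: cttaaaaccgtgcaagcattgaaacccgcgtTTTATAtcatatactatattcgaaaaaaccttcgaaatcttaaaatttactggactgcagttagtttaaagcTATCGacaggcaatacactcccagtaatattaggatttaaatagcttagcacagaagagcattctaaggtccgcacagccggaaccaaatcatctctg
Cp190 start peak: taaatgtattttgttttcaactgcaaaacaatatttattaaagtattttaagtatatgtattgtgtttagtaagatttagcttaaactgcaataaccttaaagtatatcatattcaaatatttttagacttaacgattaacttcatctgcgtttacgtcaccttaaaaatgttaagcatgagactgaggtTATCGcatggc
mod(mdg4) intronic peak: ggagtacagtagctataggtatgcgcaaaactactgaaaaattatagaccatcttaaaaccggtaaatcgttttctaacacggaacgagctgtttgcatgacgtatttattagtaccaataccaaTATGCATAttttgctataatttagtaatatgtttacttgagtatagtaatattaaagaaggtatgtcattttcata
Trl intronic peak: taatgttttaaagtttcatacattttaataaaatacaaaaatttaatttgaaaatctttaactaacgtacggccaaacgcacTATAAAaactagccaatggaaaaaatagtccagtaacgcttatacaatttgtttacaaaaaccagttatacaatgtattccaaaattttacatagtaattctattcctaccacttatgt
Trl peak at the second start: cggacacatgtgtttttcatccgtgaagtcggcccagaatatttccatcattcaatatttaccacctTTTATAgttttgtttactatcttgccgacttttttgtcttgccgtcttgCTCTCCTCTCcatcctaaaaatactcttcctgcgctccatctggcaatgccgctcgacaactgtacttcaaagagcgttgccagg
su(Hw) upstream peak: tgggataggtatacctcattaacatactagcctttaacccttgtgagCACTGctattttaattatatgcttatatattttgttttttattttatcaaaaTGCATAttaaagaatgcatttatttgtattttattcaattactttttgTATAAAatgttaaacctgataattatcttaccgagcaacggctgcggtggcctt

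In the conservative set, 4 of the 7 genes had a peak at a transcript start, namely Chro, Cp190, Trl and BEAF-32, while 12.7% of all protein-coding genes had one (exact binomial 95% interval 12.2% to 13.3%). With peaks inside the gene added, mod(mdg4) joined them and the count was 5 of 7, against 17.2% of all protein-coding genes. Neither share is matched for gene length or number of starts. The median gene is 2164.5 bp long, and of the 1553 genes at least as long as Trl, 652 (42.0%) had a peak at a start or inside. Chro, Cp190, Trl and BEAF-32 have 2 to 4 annotated starts each, whereas su(Hw), CTCF and mod(mdg4) have 1. The larger set added su(Hw), which gave 5 of 7 genes at a start, against 20.5% of all genes. The replicate 1 set alone gave the same 5 genes, against 14.5% of all genes, and the replicate 2 set alone gave Chro, Cp190, Trl and BEAF-32, against 13.9%. CTCF had no peak in any of the 4 sets. The genes were chosen with earlier results of these data known, so these counts are a description and carry no test.

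The 5 genes held 8 conservative peaks, 4 at a start and 4 elsewhere in the gene. Of the 8, 6 were in the upper 50% of the set by signal. Among the 4 genes with a start peak the highest start signal had a median of 341 (range 201.1 to 1346), and over all 1778 genes with one the median was 172 (range 2.46 to 2765). Of the 8 peaks, 7 were in both replicate sets, while 1774 of all 2984 conservative peaks (59.5%) were. By top percent all 7 lay nearer the top in replicate 1 than in replicate 2, as did 1109 of the 1774 peaks in both sets (62.5%). By rank it was 6 of 7, since BEAF-32 ranked 999 in replicate 1 and 936 in replicate 2 and the lists differ in length. The summits of the replicates were 3 to 58 bp apart at these 7 peaks, with a median of 19 bp, and the median over all peaks in both sets was 18 bp.

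**Figure D1:**
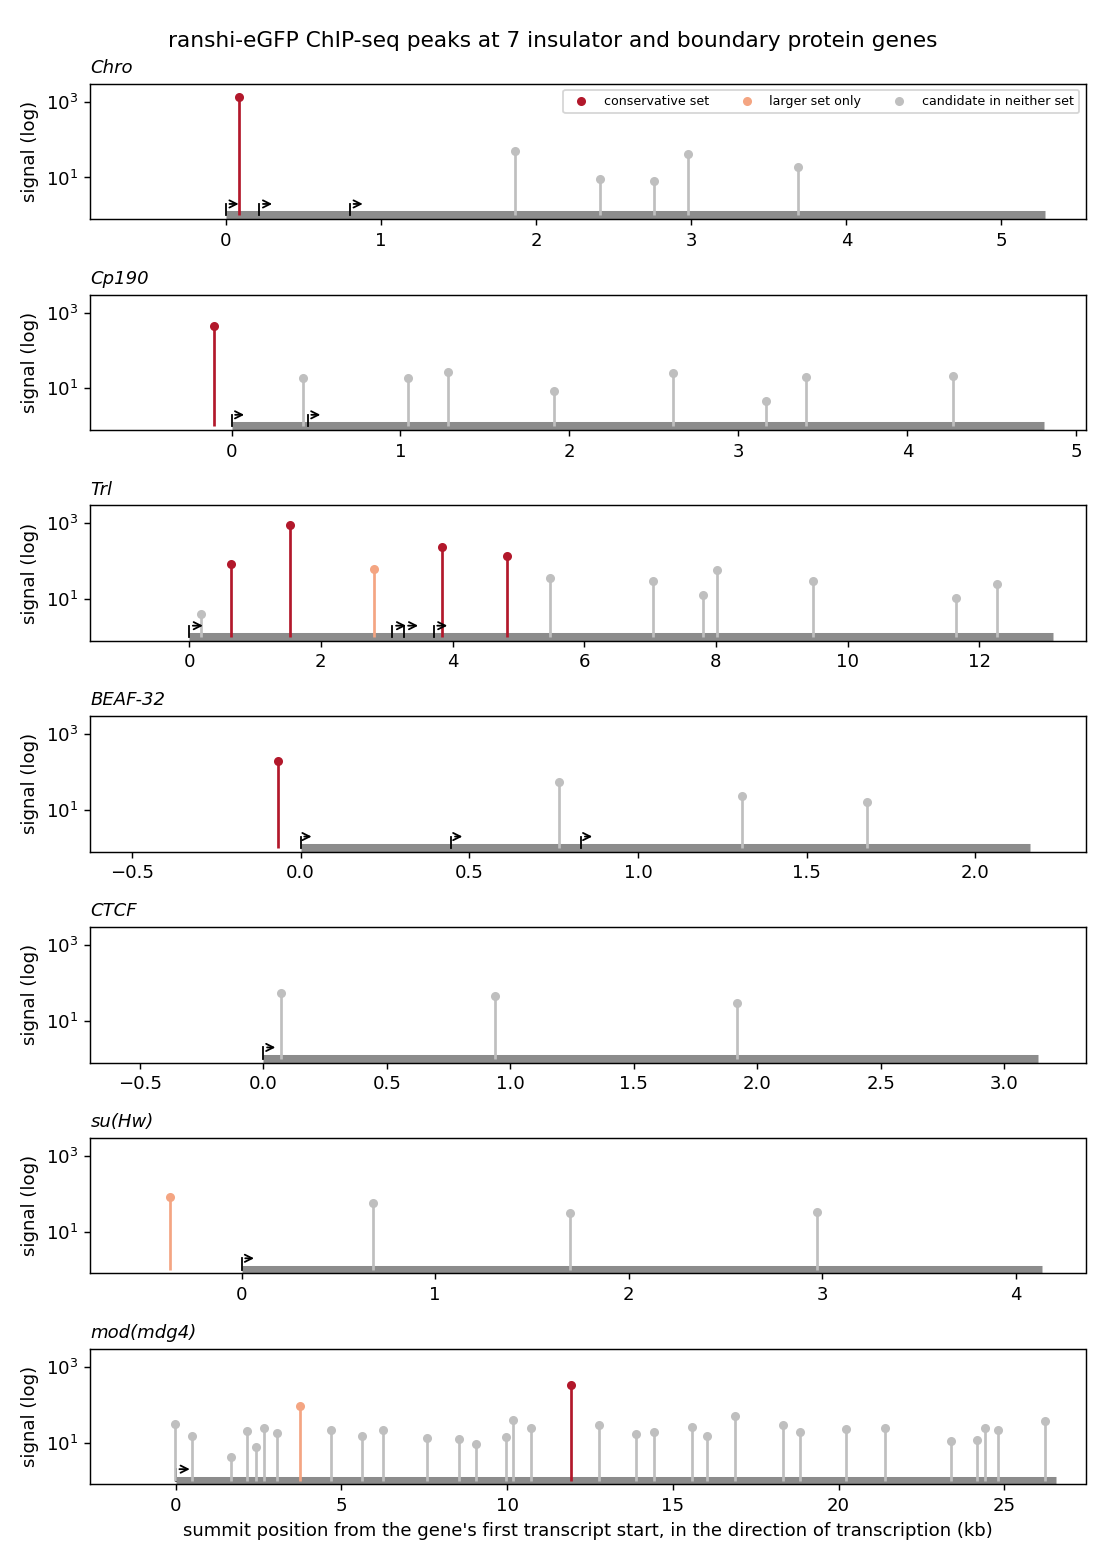
Summit positions along each of the 7 genes (kb from the first transcript start, in the direction of transcription) against peak signal on a log axis, in the series lists. The grey bar is the gene and arrows mark its starts, and stems stand for peaks of the conservative set, of the larger set only, and for candidates in neither. Chro, Cp190 and BEAF-32 have 1 conservative peak each, all by the first start, Trl has 4 along its first 5 kb, mod(mdg4) has 1 far inside the gene, and CTCF has candidates only.

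**Figure D2:**
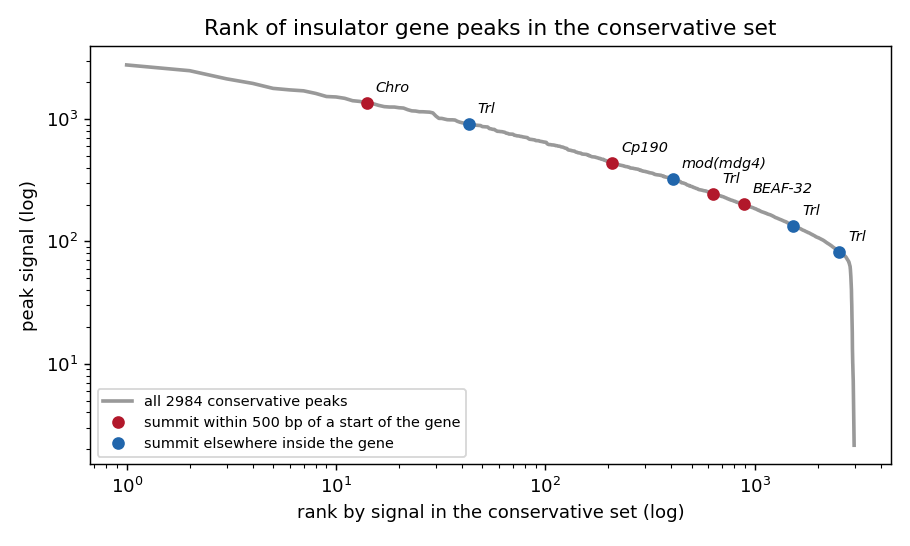
Signal of all 2984 conservative peaks against their rank by signal, both on log axes, with the 8 peaks of the insulator genes marked by position. The Chro start peak at rank 14 and the Trl intronic peak at rank 43 are the highest, and the lowest is a Trl peak at rank 2526.

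Among the cofactors, Chro carried the highest peak. The gene encodes Chromator, a chromodomain protein of polytene interbands and domain borders, and lies at 3L:22873702-22878984 on the minus strand (FBgn0044324). The peak at 3L:22878744-22879042 had a signal of 1346 in the conservative set, rank 14 of 2984 (top 0.469%), and it ranked 12 among the 1425 conservative peaks at any transcript start. Its signal was 1040 in replicate 1, rank 13 (top 0.358%), and 309 in replicate 2, rank 33 (top 1.05%). The peak was thus among the highest in both replicates. The summit fell in the 5' UTR of Chro, 85 bp downstream of the first of 3 annotated starts and 131 bp upstream of the second.

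The same summit lay 190 bp upstream of the start of Ssl1, a plus-strand gene that encodes a subunit of the general transcription factor TFIIH. The first Chro start and the Ssl1 start are 105 bp apart and point away from each other, so the peak cannot be given to either gene alone. No other peak of Chro passed a limit. Its next candidate in the conservative ranked list, 1061 bp downstream of the closest start, had a signal of 50.8 and an IDR of 0.259. In the larger ranked list the IDR of that candidate was 0.0214. The candidates overlapping it had an IDR of 0.0310 in replicate 1 and 0.831 in replicate 2.

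Cp190 encodes a BTB and zinc finger protein that several insulator complexes share, and lies at 3R:15270432-15275241 on the minus strand (FBgn0000283). Its peak at 3R:15275261-15275529 had a signal of 436 and rank 209 in the conservative set (top 7.0%). The replicate 1 signal was 324 (rank 187, top 5.14%) and the replicate 2 signal was 111 (rank 404, top 12.8%). With 3 bp between the replicate summits, it was the closest match among these genes. The summit lay 105 bp upstream of the first Cp190 start and 176 bp upstream of the plus-strand gene CG4338, in the 281 bp between their divergent starts.

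The remaining cofactor gene, mod(mdg4), differed from the others in where its peak lay. It encodes a family of BTB proteins, and its transcripts are known to be completed by trans-splicing, in which a shared 5' part is joined to 3' exons transcribed separately from either strand of the locus. The gene spans 26556 bp at 3R:21350846-21377401 on the minus strand (FBgn0002781), with 1 annotated start for the shared part. At that start there was no candidate in either the conservative or the replicate 1 ranked list. The highest in the larger ranked list had a signal of 31.7, rank 22477 and an IDR of 0.597. The candidate in replicate 2 had a signal of 16.6 and rank 20902.

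The conservative peak of mod(mdg4), at 3R:21365305-21365620, lay in an intron 11938 bp downstream of that start. It had a signal of 324 and rank 405 in the conservative set (top 13.6%). In replicate 1 the signal was 239 (rank 343, top 9.43%) and in replicate 2 it was 70.5 (rank 961, top 30.5%), with summits 21 bp apart. A peak somewhere in so long a gene was common, since 359 of the 771 genes at least as long as mod(mdg4) (46.6%) had 1 or more. The annotation lists the separately transcribed 3' parts as 23 precursor genes, 9 on the plus strand and 14 on the minus strand, whose starts fall at 4 places within the gene. The peak sat at one of these places. Its summit was 25 bp downstream of the start of pre-mod(mdg4)-E, 173 bp upstream of those of pre-mod(mdg4)-AB and -C, all on the minus strand, and 146 bp upstream of the shared start of 7 plus-strand precursors.

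A second mod(mdg4) peak, at 3R:21373481-21373796, was in the larger set only, with a signal of 93.8 and rank 2668 (top 49.7%). It lay 64 bp upstream of the shared start of pre-mod(mdg4)-AA, -N and -O. The replicate 2 set held it with a signal of 50.9 (rank 1751, top 55.6%), and replicate 1 had no candidate there. Another place of precursor starts, for 10 genes, had a candidate that did not pass the limit, with a signal of 52.0 and an IDR of 0.0219 in the larger ranked list and a signal of 29.9 and an IDR of 0.0340 in replicate 2. The conservative and replicate 1 ranked lists held no candidate there. The last place is a further start of 2 of the plus-strand precursors that also start at the conservative peak. Its candidate, in the larger ranked list, had a signal of 9.46 and an IDR of 0.865. The conservative set thus held 1 of the 4 precursor start places and the larger set 2 of 4. Of all protein-coding genes, 12.7% had a start peak in the conservative set and 20.5% in the larger set. Those shares count genes, not places, and 4 places are too few for a comparison.

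Of the DNA-binding proteins, Trl had the most peaks. It encodes the GAGA factor, which opens promoter chromatin at runs of GA repeats, and covers 13121 bp at 3L:14747929-14761049 on the minus strand (FBgn0013263), with 4 starts. It held 4 conservative peaks and 1 more in the larger set. Of all protein-coding genes, 74 of 13968 (0.530%) had 4 or more conservative peaks at a start or inside, and of the 1553 genes at least as long as Trl, 72 did (4.64%).

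The highest Trl peak was not at a start. It lay in an intron at 3L:14759353-14759662, 1535 bp downstream of the first start and 1552 bp upstream of the second, with a signal of 910 and rank 43 in the conservative set (top 1.44%). Its signal was 702 in replicate 1 (rank 36, top 0.990%) and 210 in replicate 2 (rank 105, top 3.33%). The Trl peak at a start, 3L:14757150-14757256, fell in the 5' UTR 134 bp downstream of the fourth start, with a signal of 246 and rank 635 (top 21.3%). Its signal was 185 in replicate 1 (rank 535, top 14.7%) and 54.0 in replicate 2 (rank 1544, top 49.0%). It was the narrowest of the 8 peaks at 107 bp, and its replicate summits were 58 bp apart, the widest gap among these genes.

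The other Trl peaks were lower. One at 3L:14756062-14756377, in an intron 1116 bp downstream of the fourth start, had a signal of 134 (rank 1522, top 51.0%), with 89.3 in replicate 1 and 47.4 in replicate 2. One at 3L:14760257-14760572, in an intron 634 bp downstream of the first start, had a signal of 82.6 (rank 2526, top 84.7%) and an IDR of 0.00573. It was the only one of the 8 conservative peaks in neither replicate set, as were 222 of all 2984 (7.44%). The candidates there had an IDR of 0.0443 in replicate 1 and 0.595 in replicate 2. The peak of the larger set, 3L:14758079-14758394, lay 275 bp upstream of the second Trl start, where CG42507 also begins, with a signal of 63.1 (rank 4351, top 81.0%). Replicate 2 held it with a signal of 46.3 (top 66.1%), and replicate 1 had no candidate overlapping it. Its deposited q-value in the larger set was 0.957 as −log10, the lowest among the peaks of these genes in that set.

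BEAF-32 encodes the boundary element-associated factor, which binds clustered CGATA words, and lies at 2R:14770469-14772630 on the plus strand (FBgn0015602). Its peak at 2R:14770244-14770559, 67 bp upstream of the first of 3 starts, had a signal of 201.1 and rank 885 in the conservative set (top 29.7%). Its signal was 124.9 in replicate 1 (rank 999, top 27.5%) and 71.5 in replicate 2 (rank 936, top 29.7%). Its place was thus nearly the same in both replicates. The summit was also 132 bp upstream of the start of the antisense non-coding gene asRNA:CR42254. A candidate 67 bp upstream of the third BEAF-32 start had a signal of 56.4 and an IDR of 0.151 in the conservative ranked list.

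The su(Hw) gene encodes the zinc finger protein of the gypsy insulator and lies at 3R:14304455-14308589 on the minus strand (FBgn0003567). Its peak at 3R:14308800-14309115 was in the larger set, with a signal of 83.6 and rank 3104 (top 57.8%). Replicate 1 held it with a signal of 55.9 (rank 2712, top 74.6%) and an IDR of 0.00833. In replicate 2 the candidate had a signal of 23.9, rank 8885 and an IDR of 0.370. Of the candidates of these genes outside the conservative set it was the nearest to the limit, with an IDR of 0.0141 in the conservative ranked list. The next, inside su(Hw), had 0.0521. The summit was 369 bp upstream of su(Hw) and closer to the divergent gene Polr2I, which encodes a subunit of RNA polymerase II, at 131 bp.

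CTCF encodes the fly homologue of the vertebrate insulator protein and lies at 3L:7353578-7356713 on the minus strand (FBgn0035769). The highest candidate at its 1 start, 72 bp downstream, had a signal of 55.0 and an IDR of 0.344 in the conservative ranked list, at rank 5082 of 89391. The highest candidate within 500 bp of the start had a signal of 39.7 and an IDR of 0.644 in replicate 1, and a signal of 13.9 in replicate 2. A peak at CTCF was therefore not detected at the limit used, and no depth was at hand to say how small a peak could have been found.

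**Figure D3:**
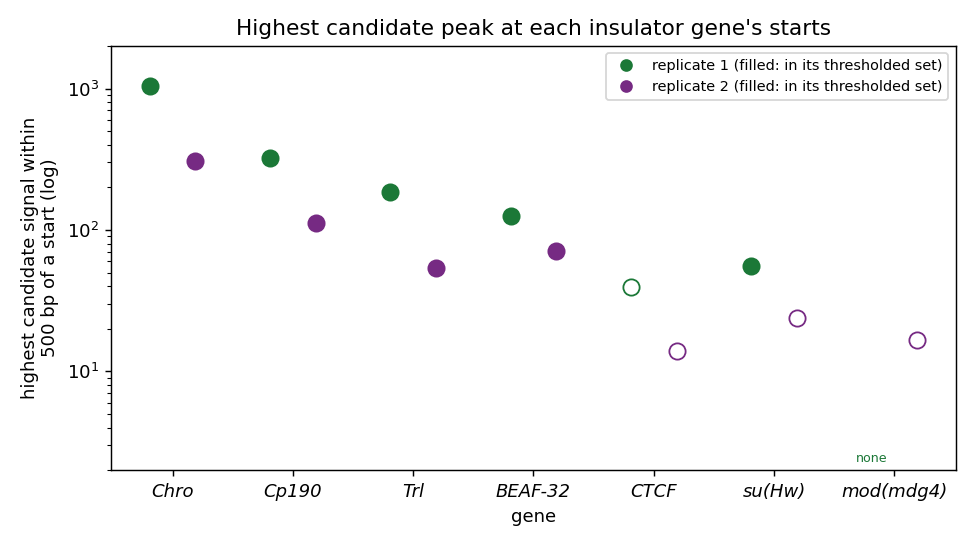
Highest candidate signal within 500 bp of any start of each gene, in each replicate, on a log axis, with filled points for peaks in the replicate's thresholded set and open points for candidates only. Signals are not scaled between replicates. In replicate 1 the signals of Chro, Cp190, Trl and BEAF-32 decrease in that order, whereas in replicate 2 BEAF-32 (71.5) is above Trl (54.0), and replicate 1 has no candidate at mod(mdg4).

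**Figure D4:**
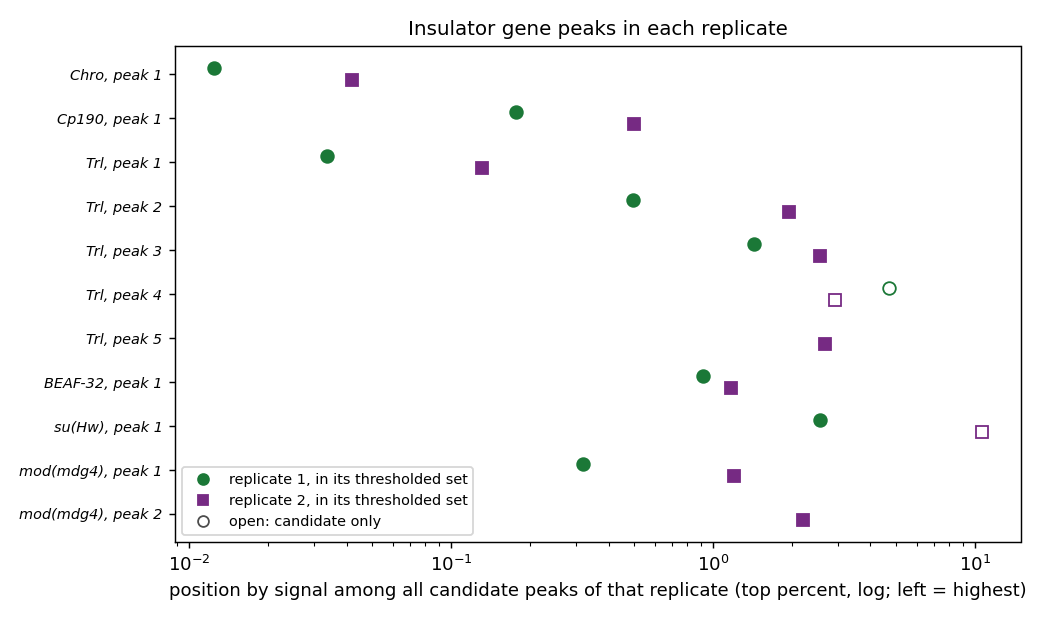
Place of each of the 11 peaks of the larger set among all candidates of each replicate, as top percent on a log axis, with the highest signal on the left and open symbols for candidates outside the replicate's thresholded set. The Chro peak stands at 0.0124% in replicate 1 and 0.0420% in replicate 2. The su(Hw) peak stands at 10.7% in replicate 2, and the second mod(mdg4) peak and the fifth Trl peak have no point for replicate 1.

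By start signal the 4 genes followed the order Chro, Cp190, Trl, BEAF-32 in the conservative set and in replicate 1. In replicate 2 Trl and BEAF-32 changed places, so their order does not exceed the difference between replicates. With 2 replicates on unlike scales no test between genes was made. Divergent promoters were common among the start peaks. Chro, Cp190, BEAF-32 and, in the larger set, su(Hw) each shared the summit's surroundings with a start on the other strand. Of all 1425 conservative peaks at a start, 536 (37.6%) had starts on both strands within 500 bp.

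The genes closest to each of the 4 in place were looked up among 6506 genes that had a candidate at a start in both replicates. Likeness was the summed difference in top percent among candidates over the 2 replicates, where 0 means the same places. For Chro these were Ssl1, which shares the peak, and eIF6, a ribosome assembly factor gene, with a summed difference of 0.0108. For Cp190 they were CG4338, which shares the peak, and CG5953 (0.0158). Trl was placed by its start peak, not by its higher intronic peak. FucTB and scat, each at 0.0178, were closest to it and had the same places as each other in both replicates. Vinc (0.0214) and zf30C (0.0560) were closest to BEAF-32. With 2 samples this is a description of place only.

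Words of known sites were counted in the windows of 100 bp to each side of the summits, on both strands. CGATA, the core of the BEAF-32 site, was in 2 of the 8 windows, that of Chro, 3 bp from the summit, and that of Cp190, 90 bp from it, against 27.4% of all conservative windows. The BEAF-32 window did not hold it. TATCGATA, the core of the DNA replication-related element, which contains CGATA, was in 0 of 8 windows, against 3.28% of all. GAGAG, part of the GAGA factor site, was in 0 of 8 windows, the 4 conservative Trl windows included, against 22.3%. The Trl peak of the larger set held 2 matches, visible as CTCTCCTCTC, which begin 16 and 21 bp after its summit.

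TGCATA, the core of the known su(Hw) site, was in 1 of 8 windows, that of mod(mdg4), against 16.6% of all windows. There it stood as 2 overlapping matches on opposite strands, 25 and 27 bp from the summit. The larger-set peak of su(Hw) held it 1 bp before its summit. AGNNGGCGC, part of the CTCF site, was in 0 of 8 windows, against 2.98%. TATAAA, the TATA box, was in 2 of 8, at Chro and at the highest Trl peak, against 36.9%. CACTG, a word picked from earlier results on the same peaks, was in 3 of 8 windows. They were those of BEAF-32 and of the Trl peaks 134 bp after the fourth start and 634 bp after the first. The word was in 54.0% of all conservative windows and 36.6% of candidates outside the sets. At 50 bp to each side these shares were 20.2% and 20.5%. A match is a word in a window and is no evidence that the factor binds there.

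The G+C content of the 8 windows had a lowest value of 25.4% at the highest Trl peak, a median of 31.8% and a highest value of 46.8% at the Trl peak by the fourth start. The mean over all conservative windows was 35.8% ± 7.28 (SD, n = 2984), and over 83283 candidate windows outside the sets it was 47.4% ± 8.23 (SD). Base composition thus differed along with the shares of words, and its part in them was not tested.

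Genes of 31 further insulator-related proteins, drawn up with earlier results of these data known, were examined in the same way. In the conservative set 10 of 31 (32.3%) had a peak at a start, against 12.7% of all protein-coding genes. When each peak was given to its closest gene only, the count was 5 of 31 (16.1%), against 9.25% of all genes. The count was 12 of 31 (38.7%) in the larger set, against 20.5% of all genes, 10 (32.3%) in replicate 1, against 14.5%, and 8 (25.8%) in replicate 2, against 13.9%. Of 11 genes listed as partner proteins, 6 had one (54.5%), against the same 12.7% of all genes. The highest was at shep, which encodes an RNA-binding protein that acts on insulators, with a signal of 261 (186 in replicate 1 and 71.0 in replicate 2). The next were lolal, a BTB protein gene, with a signal of 131, JIL-1, a histone H3 kinase gene, with 116, pzg, whose product works with Chro in interbands, with 113, and fs(1)h, the gene of the fly BET protein, with 108. Of these 5, pzg alone was missing from the replicate 2 set, and all 5 were in that of replicate 1. The lowest of the 6, with a signal of 86.8, was also in the replicate 1 set but not in that of replicate 2. Map60 was in the larger set only, with a signal of 61.0, and Rm62, Topors, l(3)mbt and HIPP1 had none in any set.

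Of 12 DNA-binding partners, 2 had a conservative peak (16.7%), a share near the 12.7% of all protein-coding genes. They were M1BP, which binds core promoters, with a signal of 311 (237 in replicate 1 and 46.0 in replicate 2), and pita with a signal of 88.8, in the replicate 1 set but not in that of replicate 2. The GAGA-binding psq was in the larger set only, with a signal of 103. The Elba genes, insv, Ibf1, Ibf2, ZIPIC, dwg and Clamp had none in any set. Of 8 cohesin and condensin genes, 2 had one (25.0%), against the same 12.7% of all genes. The cohesin regulator pds5 had a signal of 806 and rank 58, with 574 in replicate 1 and 219 in replicate 2. Cap-H2, a subunit of condensin II, had a signal of 279, with 221 in replicate 1 and 82.8 in replicate 2. The cohesin releasing factor gene wapl had a peak in the replicate 2 set alone, with a signal of 41.5. The cohesin subunit genes vtd, SMC1, SMC3 and SA1 had none in any set, nor did Nipped-B.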

How the data were processed

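ChIP-seq peaks of ranshi-eGFP embryos came as 8 lists on assembly dm6, per the labels. No source used here names the aligner or peak caller. The signal deposited by the authors is the peak caller's value, not scaled between lists. The deposited score is a whole number up to 1000, and rises in proportion to −log2 of the IDR. The deposited −log10 values (q-value, IDR) described peaks. In each ranked list over both replicates, 8 columns with values of separate inputs were not used.

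Genes came from Ensembl release 115 and windows from RefSeq's sequence of that build, with transposable element genes and pseudogene starts left out. Summits were start plus deposited offset. Overlaps needed 1 bp. Python 3.11.15, pandas 2.3.3, numpy 2.4.6 and scipy 1.17.1 were used, and counting was tested on simulated peaks. The genes and lists were chosen with earlier results of these data known. All peaks of the 7 genes were named, plus neighbours within 500 bp of a start peak's summit, up to 5 partners per group and 2 alike genes per start gene. SA was matched through an older symbol. Alternatives changed the set, window, gene assignment and motif window. The exact 95% interval of a gene share covers counting error only, not differences between replicates. It treats genes as independent, although 579 of the 1425 conservative peaks at a start (40.6%) lay by starts of several genes.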

Additional observations from a re-analysis of the deposited data

How the results depend on the processing

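The number of insulator genes with a start peak was 4 or 5 of 7 under every alternative run: the larger set, either replicate alone, all ranked peaks at the score limit, windows of 200 and 1000 bp, overlap by the peak's interval, and the closest gene only. The share of all protein-coding genes, 12.7% in the analysis reported, was 20.5% in the larger set, 9.07% with 200 bp and 15.1% with 1000 bp. It was 13.6% by interval and 9.25% by closest gene, and leaving out a replicate gave 13.9% to 14.5%. Giving each peak to its closest gene gave 5 of 31 partner genes (16.1%), against 10 in the analysis reported. CACTG was in 1 of 8 windows at 50 bp to each side, where 20.2% of all conservative windows held it. At 100 bp it was in 3 of 8, where 54.0% did. Of candidates outside the sets, 20.5% held it at 50 bp and 36.6% at 100 bp. No paired analysis was possible because the design has 1 group. Without depths or controls, a missing peak means only that none passed the limit.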
